A study of Canis lupus familiaris with 12 samples.

Results

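The 39 genes described here encode the sarcomere, its Z-disc and the costamere of heart muscle. They were taken by gene symbol from a list of 39 names, and all 39 were found among the 19856 gene entries of the mRNA table. The same symbols host 121 of the 15990 circular RNAs (circRNAs) in the circRNA table. Right atria of mongrel dogs of either sex were compared between a pacing group, in which a pacemaker drove the right atrium at 500 bpm for 14 days, and a control group that carried a pacemaker without stimulation. Total RNA depleted of ribosomal RNA was sequenced from 3 dogs in each group, with 1 library a dog, so that P1, P2 and P3 stand for pacing and C1, C2 and C4 for control. The ages of the dogs are not given in the sources used here. The pacing group is a model of atrial fibrillation made by electrical drive in hearts that were healthy at the outset.

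The sarcomere is the contractile unit of striated muscle. Thick filaments of myosin pull on thin filaments of actin, and calcium binding to troponin C moves troponin I, troponin T and tropomyosin aside so that the filaments can interact. Thin filaments of neighbouring sarcomeres are anchored at the Z-disc by alpha-actinin and its many partners, and thick filaments are linked at the M-band by myomesins. At the costamere, which joins the outermost Z-discs to the cell membrane, desmin and filamin C carry force to the extracellular matrix. A set of adaptor proteins shuttles between the Z-disc or the filaments and the nucleus, and several of their genes are known to respond to mechanical load. Loss of sarcomere order is a known feature of fibrillating atria.

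The C4 library stood apart from the other 5. In the sample labels the title C4 belongs to a paced dog, whereas the columns of the deposited tables separate C from P. C4 was therefore counted as control by the name of its column, and the counts and calls for mRNA are given with and without it. NPPA, the atrial natriuretic peptide gene, was at 3613, 3454 and 8496 FPKM in P1, P2 and P3, against 3226, 1658 and 7.78 FPKM in C1, C2 and C4. FPKM stands for fragments per kilobase of transcript, scaled to the mapped fragments of the library. MYL4, the atrial essential light chain, was at 3188 to 4378 FPKM in pacing, against 2656, 892 and 19.4 FPKM in C1, C2 and C4. MYL2, the ventricular regulatory light chain, was at 2.28 to 108 FPKM in pacing and at 64.1, 45.2 and 2331 FPKM in C1, C2 and C4. MYL3, the ventricular essential light chain, was at 2.92 to 79.6 FPKM in pacing and at 8.61, 31.3 and 3399.8 FPKM in C1, C2 and C4. C4 thus had low levels of these atrial and high levels of these ventricular mRNAs, against its label of atrial tissue. The 8 atrial markers found summed to 6844 to 13140 FPKM in pacing and to 6080, 2692 and 37.9 FPKM in C1, C2 and C4. The 6 ventricular markers found summed to 468 to 1058 FPKM in pacing and to 485, 363 and 8296.5 FPKM in C1, C2 and C4. GJA1 of the ventricular list went the other way, at 182, 102 and 95.9 FPKM in C1, C2 and C4. KCNA5 of the atrial list was low in both C2 and C4, at 0.524 and 0.539 FPKM. The defining markers of skeletal muscle were at or near 0 in all 6 libraries except CKM, the muscle creatine kinase that heart muscle also expresses. Markers of other cells differed between libraries too. ADIPOQ, the adiponectin gene of fat cells, was at 1.22 to 4.37 FPKM in pacing, against 343, 119 and 0.396 FPKM in C1, C2 and C4. The 5 fat cell markers found summed to 120 to 170.5 FPKM in pacing and to 829, 400.0 and 334 FPKM in C1, C2 and C4. LPL, the lipoprotein lipase that heart muscle also expresses, made up 112 to 166 FPKM of the sum in pacing and 306, 185 and 333 FPKM in C1, C2 and C4, so that the sum in C4 was nearly all LPL. PTPRC, the pan-leukocyte marker, was at 1.67 to 22.8 FPKM in pacing and at 8.25, 64.4 and 10.3 FPKM in C1, C2 and C4. The 6 immune markers summed to 14.5 to 166 FPKM in pacing and to 105, 158 and 33.6 FPKM in C1, C2 and C4. The 8 fibroblast markers summed to 640.2 to 859 FPKM in pacing and to 630.2, 820.4 and 317 FPKM in C1, C2 and C4. Of these POSTN, the periostin gene, was at 114, 46.1 and 43.5 FPKM in P1, P2 and P3, against 7.31, 4.47 and 0.838 FPKM in C1, C2 and C4. The log2 fold change of POSTN was 3.83 with an unadjusted p of 0.000394 and an adjusted p of 0.879 in limma, and 3.21 without C4. The 6 smooth muscle markers found summed to 435 to 532 FPKM in pacing and to 641, 358 and 78.7 FPKM in C1, C2 and C4, and the 6 endothelial markers to 223 to 416 FPKM in pacing and to 381, 237 and 192 FPKM in C1, C2 and C4. The part of these cells in the values below was not tested, and in tissue RNA fewer cells of a type and less RNA per cell cannot be told apart. Junction reads, which span the back-splice of a circRNA, numbered 28963 to 41299 in pacing and 22987 to 24782 in control.

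The genes covered a wide range of mRNA level. 6 of the 39 averaged over 1000 FPKM across the 6 libraries, 23 were over 100 FPKM and 5 were under 10 FPKM. The highest was TPM1, the alpha-tropomyosin that winds along the thin filament, with a mean of 3296 FPKM. It was followed by the cardiac actin gene ACTC1, the load-responsive ANKRD1, the cardiac troponin I gene TNNI3, the desmin gene DES and the cardiac troponin T gene TNNT2. The 5 lowest were TNNI1, SYNPO2, ANKRD2, PDLIM7 and MYOT. FPKM are per length of transcript, so these levels can be set beside each other as far as the annotation of each row holds. The rows of DES and PDLIM7 carry limits of annotation that are given below. The neighbours in this order often lay within each other's spread. TNNI3 at 1387 FPKM, DES at 1160.0 FPKM and TNNT2 at 1076 FPKM, for instance, had ranges over the 6 libraries that overlapped.

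**Figure D1:**
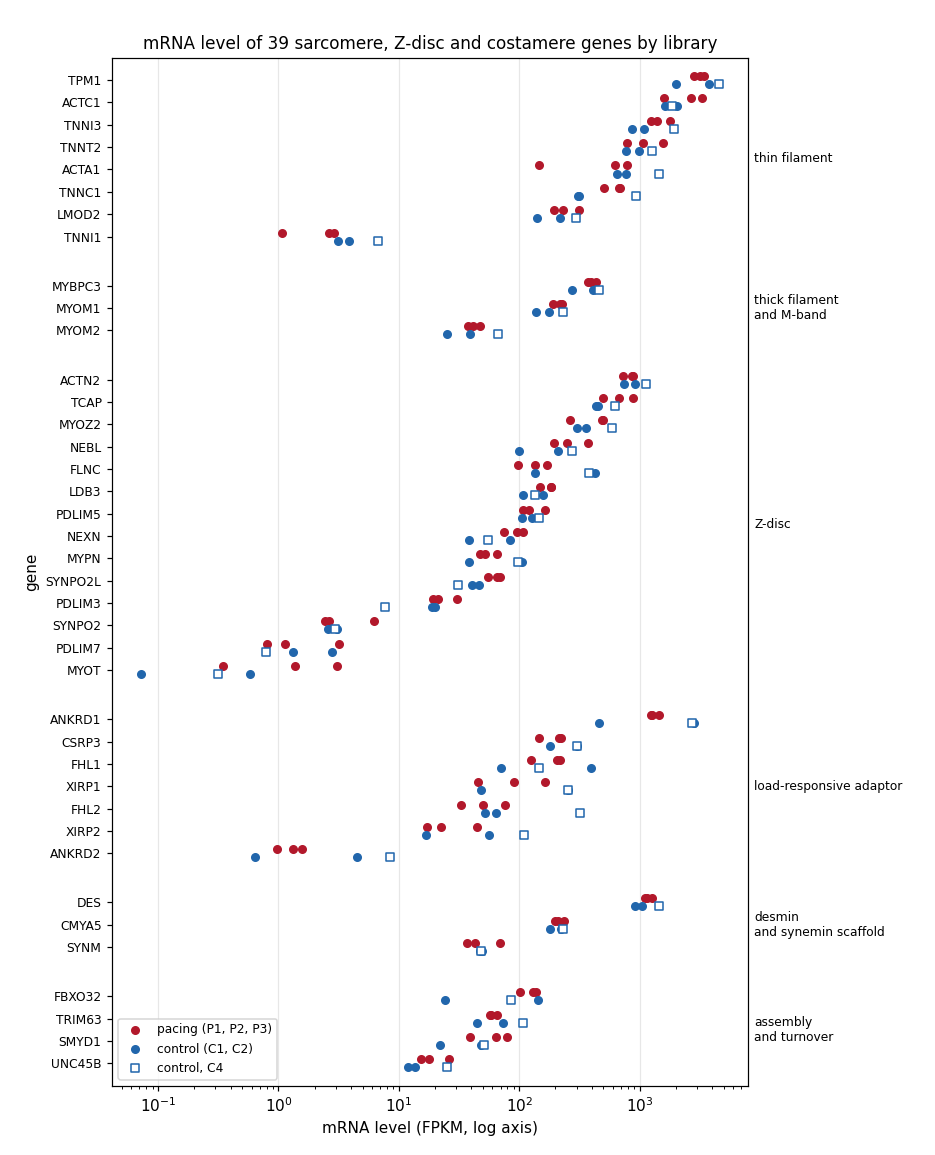
mRNA level of each of the 39 genes in FPKM on a log axis, 1 point a library, grouped by role. Red points are the 3 pacing libraries, blue points are C1 and C2, and open squares are C4, which was the highest of the 6 libraries for 16 genes.

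No member passed an adjusted p of 0.05 in limma with Benjamini-Hochberg adjustment over all genes tested, with or without C4. The background was low as well, since 0.0259% of the 11583 genes tested passed with 6 libraries and 0.171% of the 11699 tested without C4. Of the 38 members tested with 6 libraries, 1 was higher in pacing at an unadjusted p under 0.05 and 0 were lower, against 2.52% and 3.02% of all genes tested. Without C4, 2 of 39 were higher and 0 were lower, against 2.61% and 12.7% of all genes. The log2 fold change, on log2(FPKM + 1) and as pacing minus control, was positive for 24 of the 38 members and for 46.7% of all genes. Without C4 it was positive for 27 of 39 members and for 36.2% of all genes. The median log2 fold change of the members was 0.07 with 6 libraries and 0.25 without C4, beside medians of -0.03 and -0.16 over all genes tested. The members thus stood above the middle of all genes in both fits, by more without C4. With 6 libraries this order depended on both C2 and C1. Without C2 the median was -0.014 for the members and 0.027 for all genes. Without C1 the members no longer stood clearly above, with medians of 0.05 for both.

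The members whose 3 pacing values all lay on one side of the control values were counted next. With 6 libraries the groups did not overlap in 1 member that was higher in pacing, SYNPO2L, and in 1 that was lower, TNNI1, against 4.90% and 6.14% of all genes tested. Without C4 the groups did not overlap in 7 members that were higher, namely TNNI3, DES, TCAP, TNNC1, MYOM1, SYNPO2L and UNC45B, and again in TNNI1 alone of those that were lower. The background without C4 was 7.84% higher and 26.7% lower. The 7 members amount to 17.9% of the 39, above the share of all genes, whereas the 1 lower member amounts to 2.56%, below it.

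**Figure D2:**
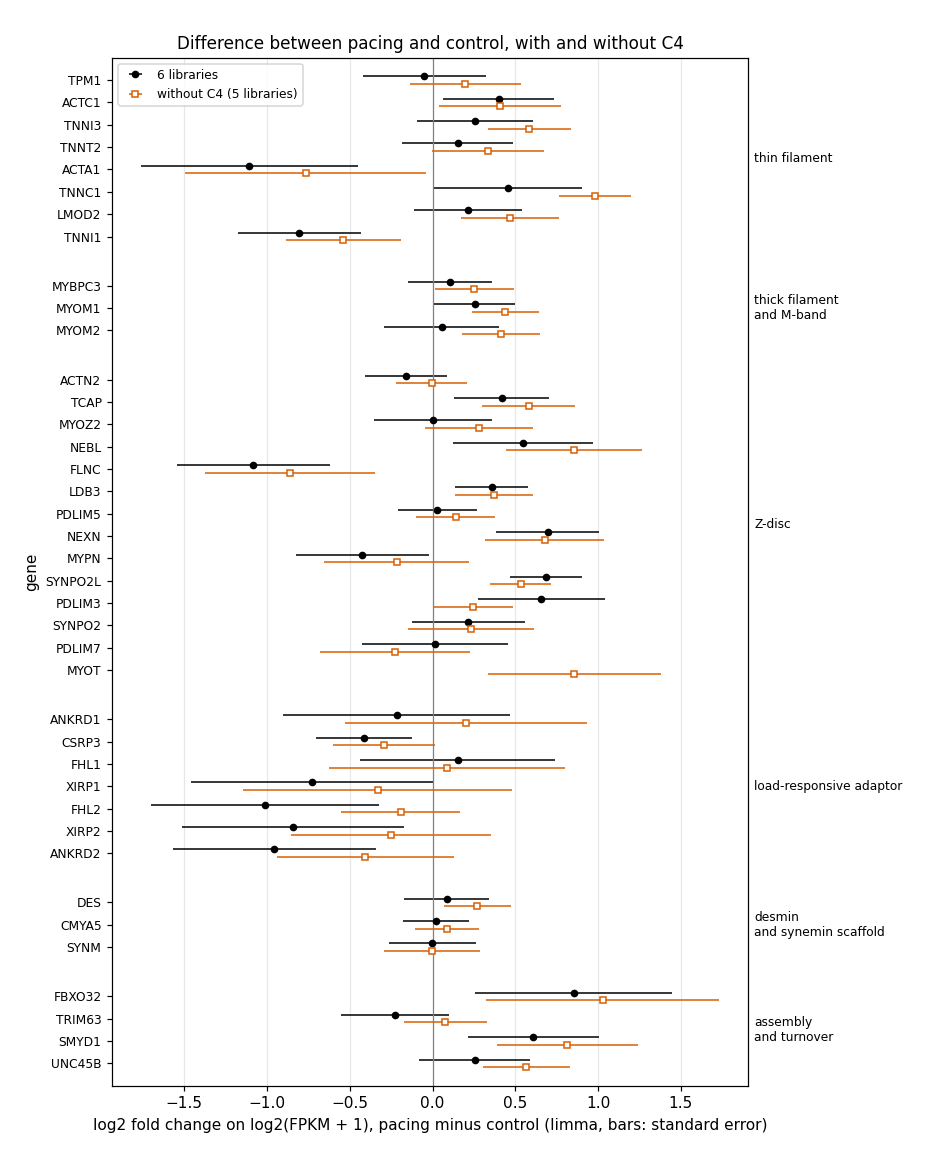
Log2 fold change of each gene on log2(FPKM + 1), pacing minus control, with its standard error from limma, grouped by role. Black circles are the fit of 6 libraries and orange squares the fit without C4, which has TNNC1 at 0.98 and FLNC at -0.86. MYOT was tested only without C4.

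SYNPO2L was the member with the smallest p with 6 libraries. It encodes an actin-bundling relative of synaptopodin that sits at the Z-disc, and its locus is a known site of human association with atrial fibrillation. Its row lies on canFam3 chr4:24169706-24173909, minus strand. SYNPO2L was at 65.6, 55.3 and 69.0 FPKM in P1, P2 and P3, against 46.1, 40.5 and 31.3 FPKM in C1, C2 and C4. All 3 pacing values lay above all 3 control values, and C4 was the lowest of the 6. The mean was 63.3 ± 7.12 FPKM in pacing and 39.3 ± 7.48 FPKM in control (SD, n = 3 each). Its log2 fold change was 0.68 with a standard error of 0.22, an unadjusted p of 0.0159 and an adjusted p of 0.879 in limma. Without C4 it was 0.53 with a standard error of 0.18, an unadjusted p of 0.0278 and an adjusted p of 0.281 in limma. With P1 or with P3 left out of the 6 libraries no member had an unadjusted p under 0.05. Over the libraries left out in turn its unadjusted p in limma was 0.0130 to 0.0649, and without C4 it was 0.0322 to 0.110 over the further library left out. Counting C4 as pacing gave SYNPO2L a log2 fold change of 0.29 with an unadjusted p of 0.416, so the call was lost.

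Among the thin filament genes, TNNC1 had the smallest p without C4. It encodes the troponin C of heart and slow muscle, the calcium sensor of the thin filament, at canFam3 chr20:37313167-37317809, plus strand. TNNC1 was at 502, 684 and 679 FPKM in P1, P2 and P3, against 309, 314 and 935 FPKM in C1, C2 and C4. C1 and C2 lay close together below all 3 pacing libraries, while C4 was the highest of the 6. Without C4 the log2 fold change was 0.98 with a standard error of 0.22, an unadjusted p of 0.00442 and an adjusted p of 0.196 in limma. With C4 it was 0.45 with a standard error of 0.45 and an unadjusted p of 0.347. Counting C4 as pacing gave TNNC1 a log2 fold change of 1.13.

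TNNI3, the cardiac troponin I that holds back contraction at low calcium, also had C1 and C2 lowest and C4 highest. It was at 1244, 1781 and 1409 FPKM in P1, P2 and P3, against 1086, 873 and 1928 FPKM in C1, C2 and C4. All 3 pacing libraries exceeded C1 and C2, and C4 exceeded all of them. Its log2 fold change was 0.26 with 6 libraries and 0.59 without C4, with unadjusted p of 0.487 and 0.0603. TNNI1, the troponin I of slow skeletal muscle and of the fetal heart, ran the other way at a far lower level. TNNI1 was at 2.61, 1.06 and 2.89 FPKM in P1, P2 and P3, against 3.12, 3.84 and 6.74 FPKM in C1, C2 and C4. The groups did not overlap, though P3 and C1 were close, and the log2 fold change was -0.81 with 6 libraries and -0.54 without C4, with unadjusted p of 0.0664 and 0.172. TNNI1 lies on chromosome 7 beside TNNT2, 32376 bp away on the same strand.

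The remaining troponin and tropomyosin genes did not separate the groups. TPM1 was at 2825, 3189 and 3432 FPKM in P1, P2 and P3, against 3755, 1994 and 4583 FPKM in C1, C2 and C4. TNNT2 was at 794, 1062 and 1573 FPKM in pacing, against 981, 772 and 1277 FPKM in C1, C2 and C4. In both genes the groups overlapped, with C2 the lowest of the 6. The thin filament genes as a group had a median log2 fold change of 0.18 with 6 libraries, with 5 of 8 positive, and of 0.37 without C4, with 6 of 8 positive. LMOD2, the leiomodin that sets thin filament length, overlapped between the groups at 196 to 312 FPKM in pacing and 139 to 297 FPKM in control.

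The 2 sarcomeric actins parted in a single library. ACTC1, the cardiac actin, was at 1600.4, 2699.6 and 3313 FPKM in P1, P2 and P3, against 2067, 1624 and 1857 FPKM in C1, C2 and C4. ACTA1, the skeletal actin that the heart also expresses, was at 628, 788 and 145 FPKM in P1, P2 and P3, against 767, 655 and 1438 FPKM in C1, C2 and C4. P3 had the most ACTC1 and the least ACTA1, and C4 had the most ACTA1. The ratio of ACTC1 to ACTA1 was 2.55, 3.43 and 22.8 in P1, P2 and P3, and 2.70, 2.48 and 1.29 in C1, C2 and C4. The log2 fold change of ACTA1 was -1.11 with a standard error of 0.65 and an unadjusted p of 0.134, and without P3 it was -0.35. The 2 actins are close relatives, and whether the authors' counting split reads between them was not tested. The ratio is uncertain to that extent.

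The thick filament and M-band members were MYBPC3, MYOM1 and MYOM2. MYBPC3, the cardiac myosin-binding protein C, lay at 372 to 434 FPKM in pacing and 274 to 458 FPKM in control. MYOM1, the myomesin that cross-links myosin at the M-band, was at 191, 227 and 220.4 FPKM in P1, P2 and P3, against 178, 137 and 231 FPKM in C1, C2 and C4. All 3 pacing libraries exceeded C1 and C2 in MYOM1, and the log2 fold change was 0.25 with 6 libraries and 0.44 without C4, with unadjusted p of 0.331 and 0.0715. MYOM2, a second myomesin, lay at 37.9 to 46.9 FPKM in pacing and 25.1 to 67.0 FPKM in control. In all 3 genes C2 was the lowest library and C4 the highest. The median log2 fold change of the 3 was 0.10, and without C4 it was 0.42.

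The 14 Z-disc members were mixed. ACTN2, the alpha-actinin that cross-links actin at the Z-disc, had the highest level of them and hardly differed, at 733 to 875 FPKM in pacing and 742 to 1141 FPKM in control. TCAP, the telethonin that caps titin, was at 878, 672 and 497 FPKM in P1, P2 and P3, against 438, 449 and 624 FPKM in C1, C2 and C4. Its pacing libraries all exceeded C1 and C2 but not C4, with a log2 fold change of 0.42, and of 0.58 without C4 with an unadjusted p of 0.0845. NEBL, the nebulette that ties thin filaments to the Z-disc of heart muscle, was at 195, 249 and 371 FPKM in P1, P2 and P3, against 209, 99.5 and 276 FPKM in C1, C2 and C4. The NEBL values overlapped, and the log2 fold change was 0.55, and 0.86 without C4 with an unadjusted p of 0.0831. With C2 left out as well the NEBL value was 0.33, so that much of it rested on the low value in C2. Over the 14 members, 10 of the 13 tested with 6 libraries had a positive log2 fold change with a median of 0.22, and without C4 10 of 14 were positive with a median of 0.26.

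FLNC stood at the negative end of the Z-disc genes. It encodes filamin C, an actin cross-linker of the Z-disc and the costamere that is known to gather at sites of muscle damage. FLNC was at 171, 98.0 and 136 FPKM in P1, P2 and P3, against 135, 427 and 381 FPKM in C1, C2 and C4. C2 and C4 exceeded every pacing library, while C1 lay within the pacing range. FLNC had a log2 fold change of -1.08 with a standard error of 0.46 and an unadjusted p of 0.0513, and -0.86 without C4 with an unadjusted p of 0.147. Without C2 and C4 together the value was -0.03, and without C1 and C4 together it was -1.69. The difference in FLNC therefore went with which control library was kept.

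Of the other Z-disc members, MYPN showed the same order in the control group as FLNC. MYPN, the myopalladin that binds alpha-actinin and nebulette, was at 47.5, 52.2 and 65.8 FPKM in P1, P2 and P3, against 38.0, 106 and 98.6 FPKM in C1, C2 and C4. MYOZ2, the calsarcin that binds calcineurin at the Z-disc, was at 266, 499.6 and 483 FPKM in P1, P2 and P3, against 359, 302 and 588 FPKM in C1, C2 and C4. PDLIM5, which tethers kinases to alpha-actinin, was at 107, 120.3 and 164 FPKM in P1, P2 and P3, against 105, 129 and 147 FPKM in C1, C2 and C4. The groups overlapped in all 3. MYOT, which encodes myotilin, was near the limit of measurement at 3.08, 0.346 and 1.38 FPKM in P1, P2 and P3, against 0.0723, 0.577 and 0.315 FPKM in C1, C2 and C4. It averaged 0.962 FPKM and was left out of the fit of 6 libraries by the minimum of 1 FPKM, and its log2 fold change without C4 was 0.86 with an unadjusted p of 0.154. LDB3, NEXN, PDLIM3, PDLIM7 and SYNPO2 had no separation of the groups either, and their log2 fold changes lay between 0.01 and 0.70 with 6 libraries and between -0.23 and 0.68 without C4. The highest of these was NEXN, the actin-binding nexilin, at 75.1 to 108 FPKM in pacing and 38.6 to 83.7 FPKM in control.

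The 7 load-responsive adaptors had the most negative median of the 6 role groups. With 6 libraries 6 of 7 had a negative log2 fold change with a median of -0.73, and without C4 5 of 7 were negative with a median of -0.25. 0 of them reached an unadjusted p of 0.05 in limma in either fit, and the spread within the control group was large. The median of -0.25 without C4 depended on the scale, since it was 0.00 after quantile normalization and -0.02 after centring on the median gene, whereas with 6 libraries it stayed between -0.59 and -0.73 on these scales. ANKRD1, the cardiac ankyrin repeat protein that binds titin and enters the nucleus, was at 1266, 1237 and 1444 FPKM in P1, P2 and P3, against 459, 2843 and 2719 FPKM in C1, C2 and C4. The 3 pacing libraries were close together, with C1 well below and C2 and C4 well above them. ANKRD2, its relative in slow skeletal muscle, was at 1.32, 1.57 and 0.972 FPKM in P1, P2 and P3, against 0.640, 4.54 and 8.43 FPKM in C1, C2 and C4. XIRP2, an Xin repeat protein that binds actin, was at 44.7, 22.5 and 17.2 FPKM in P1, P2 and P3, against 16.7, 56.6 and 109 FPKM in C1, C2 and C4. The order with C1 low and C2 and C4 high thus recurred in ANKRD1, ANKRD2 and XIRP2, with C1 below every pacing library.

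ANKRD2 had a log2 fold change of -0.96 with a standard error of 0.61 and an unadjusted p of 0.162, and -0.41 without C4. XIRP2 had one of -0.84 with a standard error of 0.67 and an unadjusted p of 0.248, and -0.25 without C4. FHL2, a LIM protein of the Z-disc and the titin N2B region, was at 49.6, 76.5 and 33.2 FPKM in P1, P2 and P3, against 51.7, 63.8 and 321 FPKM in C1, C2 and C4. C4 alone held the high FHL2 value, and the log2 fold change was -1.01 with 6 libraries and -0.19 without C4, with unadjusted p of 0.184 and 0.615. The signs of these 3 genes were not stable. With C4 counted as pacing the log2 fold change was 0.11 for ANKRD2, 0.26 for XIRP2 and 0.47 for FHL2. Without both C4 and C2 it was 0.47 for ANKRD2 and 0.60 for XIRP2, and without both C4 and P3 it was 0.04 for XIRP2 and 0.10 for FHL2. FHL1, another LIM protein that binds titin, was at 126 to 219 FPKM in pacing and at 71.2 to 396 FPKM in control, with C2 the highest. XIRP1, the other Xin repeat gene, also overlapped between the groups. It was at 45.5 to 164 FPKM in pacing and 48.4, 253 and 255 FPKM in C1, C2 and C4. CSRP3, the muscle LIM protein, overlapped at 147 to 221 FPKM in pacing and 180.1, 303 and 301 FPKM in C1, C2 and C4. In XIRP1 and CSRP3, too, C2 and C4 exceeded every pacing library, while C1 lay within the pacing range. Without C1 of the 6 libraries, 7 members were lower in pacing at an unadjusted p under 0.05, among them ANKRD1, ANKRD2, CSRP3, XIRP1 and XIRP2, together with FLNC and MYPN. With all 6 libraries 0 members were. The share of all genes that was lower without C1 was not counted, so the 7 cannot be called particular to these genes.

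**Figure D3:**
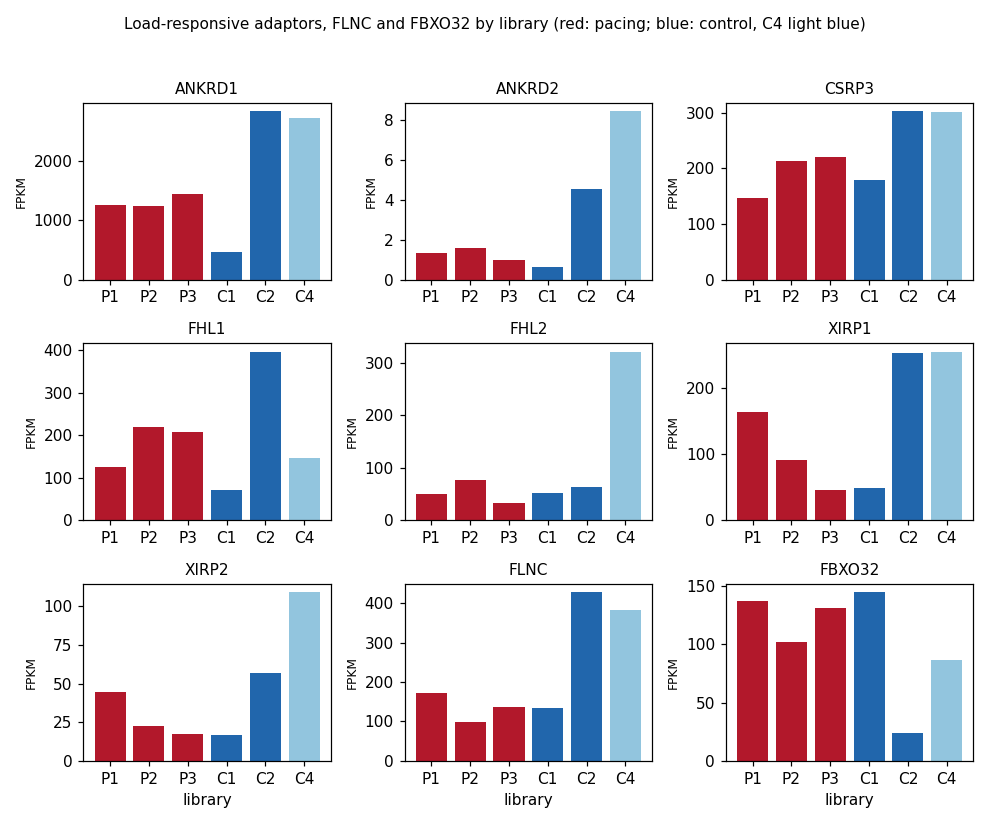
FPKM of the 7 load-responsive adaptors, of FLNC and of FBXO32, 1 bar a library, with pacing in red, C1 and C2 in blue and C4 in light blue. In ANKRD1 the pacing bars stand between 1237 and 1444 FPKM while the control bars span 459 to 2843 FPKM.

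The desmin scaffold genes differed little between the groups. DES, the intermediate filament that links Z-discs to each other and to the membrane, was at 1161, 1121 and 1272 FPKM in P1, P2 and P3, against 1054, 913 and 1440.1 FPKM in C1, C2 and C4. DES had a log2 fold change of 0.09, and 0.27 without C4, where the groups did not overlap and the unadjusted p was 0.233. Without C2 of the 6 libraries it was -0.06. CMYA5, the myospryn that binds desmin and alpha-actinin, was at 237, 198 and 209 FPKM in P1, P2 and P3, against 223, 182 and 231 FPKM in C1, C2 and C4. SYNM, the synemin that bridges desmin to the costamere, was at 36.7 to 69.0 FPKM in pacing and 47.0 to 48.9 FPKM in control. The median log2 fold change of the 3 was 0.02, and 0.09 without C4.

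Of the 4 genes of sarcomere assembly and turnover, 3 had a positive log2 fold change with 6 libraries and all 4 had one without C4. FBXO32, the muscle ubiquitin ligase also called atrogin-1, was at 137, 102 and 131 FPKM in P1, P2 and P3, against 144, 24.2 and 86.2 FPKM in C1, C2 and C4. C1 exceeded all 3 pacing libraries and C2 lay far below them, so that the log2 fold change of 0.85 had a standard error of 0.59 and an unadjusted p of 0.194. Without C4 it was 1.03, and it became -0.24 when C2 was left out as well. SMYD1, a methyltransferase of muscle needed for myofibril assembly, was at 38.7, 64.3 and 78.9 FPKM in P1, P2 and P3, against 47.8, 22.2 and 50.6 FPKM in C1, C2 and C4, with log2 fold changes of 0.61 and, without C4, 0.81. UNC45B, the chaperone that folds the myosin head, was at 17.8, 15.3 and 26.0 FPKM in P1, P2 and P3, against 13.5, 11.8 and 25.2 FPKM in C1, C2 and C4. All pacing values of UNC45B exceeded C1 and C2, and the log2 fold change was 0.25, and 0.57 without C4 with an unadjusted p of 0.0733. TRIM63, the ubiquitin ligase MuRF1 of the M-band, was at 57.6 to 65.1 FPKM in pacing and 44.2 to 108 FPKM in control.

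The control libraries differed among themselves in these genes. C4 was the highest of the 6 libraries in 16 of 38 members, against 9.95% of all genes tested, and the lowest in 3, against 43.5%. It was at least 2-fold above the mean of C1 and C2 in 8 members, against 2.81% of all genes. C2 was the lowest library in 15 of 38 members, against 18.3% of all genes. It was at least 2-fold above C1 in 8, namely ANKRD1, FHL1, XIRP1, ANKRD2, XIRP2, FLNC, MYPN and NEXN, against 8.10%, and at least 2-fold below C1 in 3, namely FBXO32, SMYD1 and NEBL, against 5.86%. The largest of these gaps between C2 and C1 were 2.63 on the log2 scale for ANKRD1 and -2.53 for FBXO32. The median SD of a member over the libraries was 0.33 in pacing and 0.55 in control, on the log2 scale, and 0.33 for C1 and C2 alone. The SD was larger in control than in pacing in 28 of 38 members and in 78.4% of all genes tested, so the wider control spread was not particular to these genes.

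The members together took 2.88%, 3.37% and 4.18% of the summed FPKM in P1, P2 and P3, against 2.43%, 2.74% and 3.91% in C1, C2 and C4. The mean was 3.48 ± 0.656% in pacing and 3.03 ± 0.782% in control (SD, n = 3 each, 2-sided exact permutation p = 0.5). Without C4 the groups did not overlap, with an exact permutation p of 0.2, while 3 libraries against 2 cannot go below 0.1. Genes encoded by the mitochondrial genome took 28.0% to 38.8% of the summed FPKM in pacing and 36.2% to 48.1% in control. Leaving them out gave member shares of 5.34 ± 0.564% in pacing and 5.31 ± 1.93% in control (SD, n = 3 each, exact permutation p = 1). Without C4 these shares did not overlap, and the difference was 1.14 percentage points with an exact permutation p of 0.2.

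Ratios of paired members compare 2 genes within a library. Of 9 ratios computed, TNNI3 over TNNI1 and ANKRD1 over ANKRD2 did not overlap between the groups with 6 libraries. TNNI3 over TNNI1 was 477, 1678 and 488 in P1, P2 and P3, against 349, 227 and 286 in C1, C2 and C4. ANKRD1 over ANKRD2 was 962, 787 and 1486 in P1, P2 and P3, against 717, 627 and 322 in C1, C2 and C4. In both the pacing libraries all lay above the control libraries, at an exact permutation p of 0.1, the smallest that 3 against 3 allow, and an adjusted p of 0.45 over the 9 ratios. Without C4 the groups still did not overlap, with exact permutation p of 0.4 and 0.2. The denominators TNNI1 and ANKRD2 were below 10 FPKM in every library. TNNI1 by itself did not overlap between the groups either, and how often ratios of other genes do so was not counted. TNNI3 over TNNC1, which are subunits of the same complex, was 2.48, 2.60 and 2.07 in P1, P2 and P3, against 3.52, 2.78 and 2.06 in C1, C2 and C4 (exact permutation p = 0.5), and without C4 it was lower in all 3 pacing libraries (exact permutation p = 0.1, the smallest possible). FBXO32 over TRIM63, the pair of atrophy ligases, was 2.11, 1.75 and 2.27 in P1, P2 and P3, against 1.96, 0.546 and 0.796 in C1, C2 and C4 (exact permutation p = 0.2, and also 0.2 without C4, with overlap in both).

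Other genes of the same structures were taken as a wider list. Of 33 other sarcomere genes, 30 were in the table and 23 were tested with 6 libraries. Of these 7 had a positive and 16 a negative log2 fold change, with a median of -0.15. At an unadjusted p under 0.05 in limma 0 passed, against 2.52% higher and 3.02% lower of all genes tested. Without C4, 0 passed an adjusted p of 0.05 in limma. At an unadjusted p under 0.05, 1 of 22 was lower, against 12.7% of all genes tested. It was MYBPH, a myosin-binding protein H, at 0.264 to 0.623 FPKM in pacing and 5.51, 10.8 and 0.156 FPKM in C1, C2 and C4. MYBPH was high in the same 2 libraries as ADIPOQ. Of 24 other costamere and dystrophin complex genes, 19 were tested, of which 14 had a positive log2 fold change with 6 libraries, with a median of 0.22. At an unadjusted p under 0.05 in limma 2 were higher, against 2.52% of all genes tested. Without C4, 13 of 19 were positive with a median of 0.15. At an unadjusted p under 0.05 in limma 3 were then higher, against 2.61% of all genes tested.

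The 2 with 6 libraries were members of the sarcoglycan and sarcospan complex, which links dystrophin to the membrane. SGCD, delta-sarcoglycan, was at 56.2, 60.2 and 79.4 FPKM in P1, P2 and P3, against 44.7, 33.3 and 35.9 FPKM in C1, C2 and C4, with log2 fold changes of 0.76 and, without C4, 0.73. SSPN, sarcospan, was at 16.0, 24.6 and 26.4 FPKM in P1, P2 and P3, against 15.0, 9.35 and 15.6 FPKM in C1, C2 and C4, with log2 fold changes of 0.71 and 0.83. The groups did not overlap in either gene, and 4.90% of all genes tested were likewise higher without overlap. The unadjusted p were 0.0108 and 0.0450 in limma, with an adjusted p of 0.879 for both. Without C4 the unadjusted p were 0.0220 for SGCD and 0.0361 for SSPN.

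CircRNAs are closed loops made when a downstream splice donor joins an upstream acceptor, and they are counted by reads across that junction. 20 of the 39 genes hosted 121 circRNAs with 1203 of the 182697 junction reads in the table, which is 0.658%. Of the 121, 69 were exonic, 25 sense overlapping, 14 antisense and 13 intronic by the deposited classes. Of the 121, 87, or 71.9%, had reads in 1 library only, as did 70.2% of all circRNAs, and 3 had reads in all 6. The members of highest mRNA level were not the leading hosts. TPM1, TNNI3, DES and TNNT2, all over 1000 FPKM, hosted no circRNA in the table, while MYOZ2 at a mean of 416 FPKM hosted 584 junction reads.

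**Figure D4:**
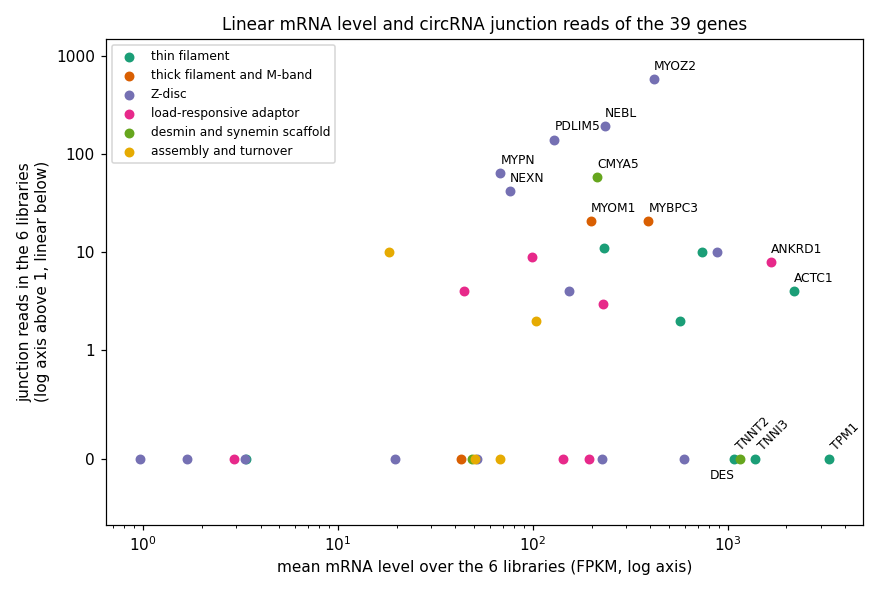
Mean FPKM of each of the 39 genes over the 6 libraries (log axis) against its junction reads summed over the 6 libraries (log axis above 1), coloured by role. MYOZ2 at 584 reads, NEBL at 195 and PDLIM5 at 141 lead, and TPM1, TNNI3, DES and TNNT2 lie at 0 at the right.

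MYOZ2 held 584 of the 1203 reads in 3 circRNAs. Its reads numbered 87, 155 and 160 in P1, P2 and P3, against 44, 58 and 80 in C1, C2 and C4. As a share of the junction reads of each library this was 0.300% in P1 (95% exact interval 0.241% to 0.370%), 0.378% in P2 (0.321% to 0.442%) and 0.387% in P3 (0.330% to 0.452%). It was 0.191% in C1 (0.139% to 0.257%), 0.234% in C2 (0.178% to 0.302%) and 0.338% in C4 (0.268% to 0.420%). The intervals cover counting error only. C1 and C2 lay below all 3 pacing libraries and C4 lay within the range of the pacing libraries, so the groups overlapped with 6 libraries. The mean share was 0.355 ± 0.0478% in pacing and 0.254 ± 0.0754% in control (SD, n = 3 each, exact permutation p = 0.2). Without C4 the exact permutation p was 0.1, the smallest that 3 libraries against 2 allow, and over 20 hosts every adjusted value with 6 libraries was 1. The share of all members was 0.690 ± 0.143% in pacing and 0.583 ± 0.161% in control (SD, n = 3 each, exact permutation p = 0.5, and 0.3 without C4).

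The leading MYOZ2 circRNA spanned canFam3 chr32:38105169-38118030 on the plus strand, was exonic and had a predicted length of 484 nucleotides. It had 55, 97 and 133 reads in P1, P2 and P3, against 39, 39 and 64 reads in C1, C2 and C4. Pacing libraries were sequenced more deeply, and the log2 fold change in edgeR's quasi-likelihood test was 0.60 with an unadjusted p of 0.337. The next spanned chr32:38111431-38118030, which shares the downstream end, with a predicted length of 314 nucleotides. It had 32, 58 and 23 reads in P1, P2 and P3, against 5, 19 and 16 reads in C1, C2 and C4. Its log2 fold change was 1.15 with a standard error of 0.70, an unadjusted p of 0.0999 and an adjusted p of 0.401 in edgeR. Without C4 it passed the study's thresholds, a 2-fold change and an unadjusted p of 0.05, with an unadjusted p of 0.0413. Its log2 fold change was then 1.32, and that of the leading circRNA was 0.89 with an unadjusted p of 0.139. The mRNA of MYOZ2 had a log2 fold change of 0.00 with 6 libraries and of 0.28 without C4, with unadjusted p of 0.992 and 0.422 in limma.

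**Figure D5:**
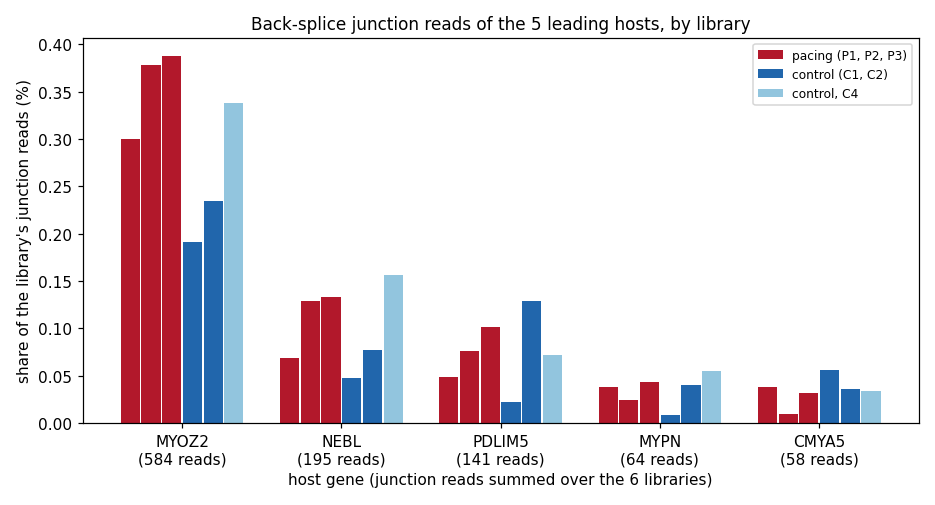
Share of each library's junction reads that fell on circRNAs of the 5 leading hosts, 1 bar a library, with pacing in red, C1 and C2 in blue and C4 in light blue. MYOZ2 lies at 0.300% to 0.387% in pacing and 0.191% to 0.338% in control.

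NEBL hosted the most circRNAs, 33 with 195 reads, of which 20, 53 and 55 fell in P1, P2 and P3, against 11, 19 and 37 in C1, C2 and C4. The 2 circRNAs of all members that passed the study's thresholds in edgeR were both of NEBL and both higher in pacing, and 0 were lower, against 0.663% and 0.356% of all circRNAs. 0 of the 121 passed an adjusted p of 0.05 in edgeR, against 0.0500% of all circRNAs, and 2 had an unadjusted p under 0.05, against 1.02%. One was exonic, at chr2:12196509-12198539 on the plus strand, with all of its 24 reads in P2. The other was intronic, at chr2:12124574-12151518, with 0, 7 and 13 reads in P1, P2 and P3. Neither had a read in control. With the reads of each group pooled and control set to a floor of 3 reads, pacing was 5.14-fold and 4.28-fold higher. These pooled values ignore the spread between dogs and are no lower bound for pacing as a condition. The unadjusted p of the 2 circRNAs were 0.00595 and 0.0140 in edgeR, with an adjusted p of 0.401 for both. In DESeq2 both missed the threshold, with unadjusted p of 0.165 and 0.159. Without C4 both still passed in edgeR, with unadjusted p of 0.0146 and 0.0337. The exonic call rested on P2 alone, and the intronic one was lost without P2 (unadjusted p of 0.0518) and without P3 (0.190).

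The other hosts with 50 reads or more were PDLIM5, MYPN and CMYA5. PDLIM5 had 14, 31 and 42 reads in P1, P2 and P3, against 5, 32 and 17 in C1, C2 and C4, over 27 circRNAs. MYPN had 11, 10 and 18 reads in P1, P2 and P3, against 2, 10 and 13 in C1, C2 and C4. CMYA5 had 11, 4 and 13 reads in P1, P2 and P3, against 13, 9 and 8 in C1, C2 and C4, and its leading circRNA had a predicted length of 10009 nucleotides. In shares of junction reads the groups overlapped in all 3 hosts. By share of junction reads 1 of the 121 circRNAs had groups that did not overlap and was higher in pacing, against 1.06% of all circRNAs. It was an exonic circRNA of MYBPC3 at chr18:42281873-42282327 with 6, 6 and 5 reads in P1, P2 and P3, against 0, 2 and 0 in C1, C2 and C4, and its unadjusted p in edgeR was 0.147.

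Some rows carry limits of the annotation. The row named PDLIM7 spans 1358 bp on chromosome X, whereas RefSeq places PDLIM7 on chromosome 4 in its assembly UU_Cfam_GSD_1.0, so its values may not be those of PDLIM7. MYOM2 lies on an unplaced scaffold of canFam3. The row of SYNPO2L spans 4203 bp, against 9661 bp in RefSeq, and that of FHL1 spans 14331 bp, against 63164 bp. What these shorter spans do to the values was not tested. The locus given for DES spans 230046 bp and overlaps 9 other genes of the table, and that of LDB3 spans 359099 bp and overlaps 3. Titin, nebulin, obscurin, dystrophin, utrophin and MYL7 were not analysed here.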

How the data were processed

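Per the labels and the methods of the study, the authors trimmed reads (cutadapt 1.9.3), aligned them to canFam3 with HISAT2 and computed FPKM with Cufflinks and Cuffdiff, and they counted circRNA junction reads with Bowtie2 and find_circ. The deposited mRNA values used are FPKM per gene, and the deposited circRNA values used are raw junction read counts. 12 normalized columns of the same tables were not used, nor were the fold changes and p-values of the authors, the lncRNA table and the small RNA samples. 1 gene of the wider list is not reported here.

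Members and lists were chosen with earlier results of these data known. Columns C1, C2 and C4 were taken as control and P1, P2 and P3 as pacing by their names, which do not follow the sample titles beyond C1 and C2. Symbols were matched without regard to case. Genes averaging at least 1 FPKM entered limma 3.58.1 on log2(FPKM + 1), with trend and 2-sided, with 6 libraries and without C4. This scale understates the change of low genes. For circRNA counts the quasi-likelihood test of edgeR 4.0.16 with TMM scaling was used, and DESeq2 1.42.0 as an alternative. Shares and ratios were tested by exact permutation. P-values with 6 libraries measure the spread between 3 dogs a group, and the control spread then includes the departure of C4 in chamber markers. P-values without C4 rest on only 2 control dogs. In limma and edgeR the variance of a gene or circRNA also draws on that of the others. The scripts were tested on simulated data. Given in every library were members with an unadjusted p under 0.05 or without overlap in either fit, the 6 of highest level, the 6 of largest log2 fold change in each fit, and hosts of 50 junction reads or more or of a circRNA past the thresholds. Alternatives covered pseudocounts of 0.1 and 0.5, filters, scaling, library size and each library left out. The steps between low FPKM values gave relative depths of 0.717 to 1 in pacing and 0.525 to 0.607 in control. Total junction reads ranged from 22987 to 41299 per library.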

Additional observations from a re-analysis of the deposited data

How the results depend on the processing

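0 members passed an adjusted p of 0.05 in limma under any of the 14 alternatives with 6 libraries or the 12 without C4, and 0 of the circRNAs did in edgeR or DESeq2. The number of members higher at an unadjusted p under 0.05, 1 with 6 libraries, was 4 after quantile normalization, 2 after centring on the median gene, 4 with C4 counted as pacing and 0 to 2 with each library left out, and the number lower, 0, was 0 to 7 with each library left out, the 7 without C1. Without C4 the number higher, 2, was 9 after quantile normalization, 10 after centring and 2 to 8 with a further library left out, and the number lower, 0, was then 0 to 5. The 8 and the 5 came without C1, which leaves C2 as the only control, assumed to vary like the pacing libraries, so they describe C2 rather than a control group. Apart from the mRNA fit without C4, the shares of all genes or circRNAs called under these alternatives were not counted. The median log2 fold change of the members with 6 libraries, 0.07, was -0.014 to 0.25 with each library left out, the lowest without C2. The median log2 fold change of the members without C4, 0.25, was 0.40 after quantile normalization, 0.47 after centring and 0.14 to 0.37 with a library left out, while the median of all genes was 0.05 and 0.07 on these scales in place of -0.16. The circRNAs higher past the thresholds, 2 in edgeR, were 1 in DESeq2, which was the second MYOZ2 circRNA, and 0 to 4 with each library left out, the 0 without P2.

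Signs turned for DES without C2 (-0.059), and with C4 counted as pacing for FHL2 (0.47), XIRP2 (0.26) and ANKRD2 (0.11). In the fit without C4 they turned for FHL2 after quantile normalization (0.043), after centring (0.036) and without P3 (0.10), for XIRP2 after quantile normalization (0.0028), without C2 (0.60) and without P3 (0.036), for ANKRD2 without C2 (0.47) and for FBXO32 without C2 (-0.24). The cause was not tested beyond the libraries named. The difference in share of summed FPKM, 0.452 percentage points, was 0.102 to 0.894 with each library left out and 0.0282 without mitochondrially encoded genes, and that in share of junction reads, 0.107, was 0.0238 to 0.185, so neither size was well fixed. No paired analysis was possible because each dog gave 1 library to 1 group, the sample titles number the dogs through both groups, and the numbers that column names share, as in C1 and P1, are tied to no common animal or batch. With 3 dogs a group, 1 of them C4, small differences could not be resolved, and for low junction counts only large ones.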
